A study of Drosophila melanogaster with 6 samples.

Results

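Promoter peaks were taken from the 6 ATAC-seq peak lists of Drosophila melanogaster wing imaginal discs as the peaks on 2L, 3L and 3R whose summit lay within 500 bp of the 5′ end of an annotated protein-coding transcript. There were 18192 of them among 205290 peaks. Peaks that overlapped between lists were merged into intervals, and 4190 of 45905 intervals held a promoter peak, 1120 on 2L, 1362 on 3L and 1708 on 3R. The ends of the arms near the centromere were left out, namely 2L from 22.0 Mb, 3L from 22.9 Mb and 3R below 4.2 Mb, and the remaining 23396 intervals on the same parts of these arms served for comparison. Positions are on dm6 throughout, with the Ensembl 115 annotation.

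The discs expressed RNAi against Cdk1 (Cdk1-i), fzr or GFP, and there were 2 libraries of each genotype. For the figures that include the ATAC-seq, the paper states that 2 Cdk1 lines were combined for a stronger knockdown. All 3 genotypes carried the ubiquitous tub-Gal4 driver with tub-Gal80, whose temperature-sensitive form keeps the transgene off in the cold, and their larvae were held at 17 °C for 7 days and at 31 °C for 2 days, so that the heat was shared by the GFP controls. At least 30 whole discs were pooled for a library, and a difference in a bulk sample cannot separate a change in every cell from a change in the mix of cells. The 2 libraries of a genotype were described as biological replicates. Genotypes follow the sample labels, while the file names of 4 lists give "fzr" for the libraries labelled Cdk1-i and "Cdk" for those labelled fzr. No value examined here settles which is right, so every statement on Cdk1-i or fzr is on the libraries labelled so. With the names followed instead, the 2 genotypes change places. The lists of the whole series held 36617 and 36100 peaks for Cdk1-i, 33335 and 27119 for fzr, and 36715 and 35404 for GFP. The shortest listed peak measured 161 and 160 bp for Cdk1-i, 143 and 197 bp for fzr, and 169 and 166 bp for GFP, so a peak under 160 bp could appear only in the first fzr list. The lists give no read counts, and the sequencing depth of the libraries is unknown.

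In ATAC-seq, a transposase cuts and tags DNA where nucleosomes leave it open, and a peak marks such an open stretch. At an active promoter, the stretch just upstream of the transcription start is kept free of nucleosomes by bound factors and remodelling complexes. Drosophila promoters fall into broad classes, among them housekeeping promoters with the DNA replication-related element (DRE), E-box or Motif 1 and regulated promoters with a TATA box, an initiator or GAGA repeats. Cdk1 is the kinase that drives cells from G2 into mitosis, and Fzr activates the ubiquitin ligase that destroys the mitotic cyclins, so loss of Cdk1 blocks entry into mitosis and excess of Fzr can turn mitotic cycles into endocycles.

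The 120 bases upstream of 8 promoters that the results below turn on are shown first, 5′ to 3′ towards the gene, with every match to the motif words of the search described further on in capitals. The nub promoter is the strongest of the patterning genes listed further on and carries a GAGA repeat (word GAGAGAG, here on the reverse strand). In the same 120 bases, rho, the next strongest of them, carries only TATAAA, and wg none of the words. CycB3 is the strongest promoter of a mitotic gene and carries the Motif 1 core (GGTCACACT). Cht2 is the strongest promoter of all and matches none of the words.
nub (chr2L:12618225-12618344, plus strand): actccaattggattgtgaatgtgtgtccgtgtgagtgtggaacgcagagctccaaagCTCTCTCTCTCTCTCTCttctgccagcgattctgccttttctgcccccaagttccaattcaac
CycB3 (chr3R:24870817-24870936, minus strand): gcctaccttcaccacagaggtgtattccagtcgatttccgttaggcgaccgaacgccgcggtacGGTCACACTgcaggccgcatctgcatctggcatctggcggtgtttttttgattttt
Cht2 (chr3L:1755273-1755392, minus strand): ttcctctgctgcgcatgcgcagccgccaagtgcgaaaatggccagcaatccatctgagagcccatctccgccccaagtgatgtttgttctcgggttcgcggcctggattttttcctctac
The next 3 lie in intervals found in both libraries of Cdk1-i or of fzr and in neither GFP list. MYPT-75D carries an E2F word (TTTGGCGC), MED19 none, and Rm62 an E-box (CAGCTG) and a DRE (TATCGATA).
MYPT-75D (chr3L:18641271-18641390, plus strand): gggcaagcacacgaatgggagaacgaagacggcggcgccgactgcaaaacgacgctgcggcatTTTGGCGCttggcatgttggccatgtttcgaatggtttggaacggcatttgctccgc
MED19 (chr3L:17846502-17846621, minus strand): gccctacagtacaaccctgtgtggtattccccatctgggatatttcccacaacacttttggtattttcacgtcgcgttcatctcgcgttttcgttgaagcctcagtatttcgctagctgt
Rm62 (chr3R:6008580-6008699, minus strand): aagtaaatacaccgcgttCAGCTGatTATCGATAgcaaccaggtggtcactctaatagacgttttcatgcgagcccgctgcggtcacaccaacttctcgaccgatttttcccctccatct
The last pair had the largest differences in percentile from GFP in the same direction in Cdk1-i and fzr. CG10089, which was higher, carries 2 initiator words (TCAGTC and the reverse of TCAGTT), and CG9044, which was lower, has TATAAA well upstream of its 5′ end.
CG10089 (chr3L:13469214-13469333, minus strand): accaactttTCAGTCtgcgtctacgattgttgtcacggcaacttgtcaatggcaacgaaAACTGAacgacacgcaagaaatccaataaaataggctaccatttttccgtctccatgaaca
CG9044 (chr2L:5949330-5949449, plus strand): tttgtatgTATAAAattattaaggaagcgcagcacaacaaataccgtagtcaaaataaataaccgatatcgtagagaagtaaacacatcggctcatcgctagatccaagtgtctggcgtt

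Promoter summits lay just upstream of the transcription start in every library. The median summit was 84 and 83 bp upstream of the nearest 5′ end in Cdk1-i, 74 and 86 bp in fzr, and 88 and 93 bp in GFP. In these libraries 80.6 and 81.6% of the promoter summits lay upstream in Cdk1-i, 81.6 and 86.3% in fzr, and 76.0 and 83.5% in GFP. The 2 GFP libraries thus stood further from each other than their mean stood from that of Cdk1-i. The first 100 bases inside the gene held only 4.04 and 4.06% of promoter summits in Cdk1-i, 2.85 and 2.97% in fzr, and 5.84 and 2.80% in GFP. By annotation, the leading summit lay between genes in 2318 of the 4190 intervals, in an intron in 1680, in a UTR in 147 and in a coding exon in 45. Of the intronic ones 59.9% were found in all 6 lists, against 48.9% of those between genes. At the edge of the window, the summits in the last 50 bp had median percentiles from 59.8 to 72.6 over the libraries, and those in the next 50 bp, which were not counted, from 63.3 to 69.7.

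**Figure D1:**
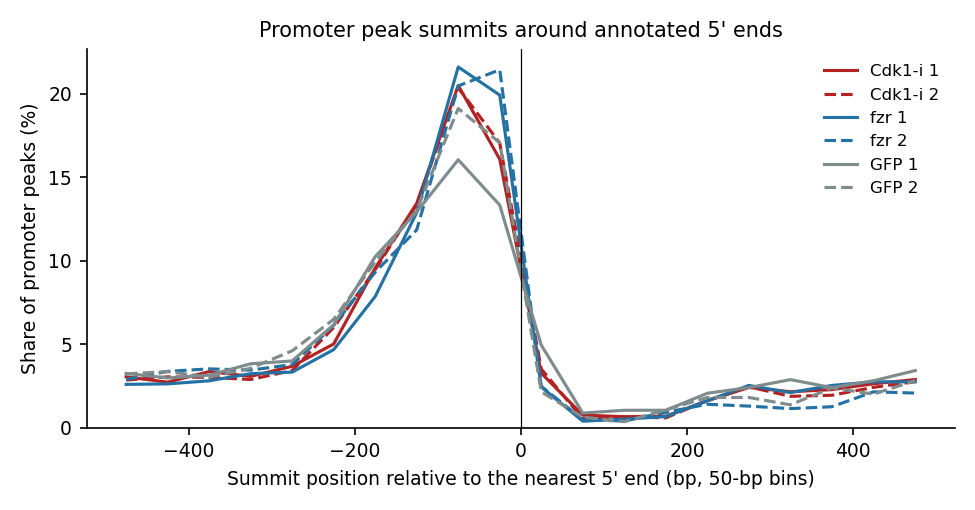
Share of each library's promoter peaks (%) by summit position relative to the nearest protein-coding 5′ end, in 50-bp bins, with negative positions upstream. All 6 libraries have their highest bins in the 100 bp before the 5′ end and low ones from 50 to 200 bp inside the gene, and GFP 1 has the lowest maximum.

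Promoter peaks were far stronger than other open stretches. Strength was measured as the percentile of a peak's fold enrichment, the height over the local background given by the peak caller, within its own list, so that 100 is the strongest peak of a library. The median percentile of promoter peaks was 78.4 and 78.8 in Cdk1-i, 79.1 and 77.3 in fzr, and 80.8 and 78.9 in GFP. The other peaks of the same arms had medians of 46.4 and 46.3 in Cdk1-i, 45.5 and 45.6 in fzr, and 46.6 and 45.9 in GFP. The difference was 32.8 ± 0.943 points (SD, n = 6 libraries) and positive in 6 of 6 libraries (two-sided exact sign-flip permutation test, p = 0.03125, the smallest that 6 libraries allow). Promoters made up 4.32 ± 0.377% of the peaks in the weakest 10% of a list and 44.3 ± 2.31% in the strongest 10% (SD, n = 6 libraries).

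Promoter peaks were also slightly narrower. Their median width was 310 and 321 bp in Cdk1-i, 287 and 425 bp in fzr, and 327 and 351 bp in GFP, against 332 and 341 bp, 313 and 442 bp, and 351 and 374 bp for the other peaks in the same order of libraries. The log2 ratio of the medians was -0.09 ± 0.02 (SD, n = 6) and negative in 6 of 6 libraries (exact sign-flip permutation test, p = 0.03125). The second fzr library had the widest promoter peaks and the first fzr library the narrowest, so width differed more within fzr than between genotypes.

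The 5 strongest promoter intervals lay at the very top of all 6 lists and show no room for a difference between genotypes. They belong to Cht2, which encodes a chitinase, ftz-f1, which encodes a nuclear receptor of the ecdysone response, pb, a Hox gene, and the serpin genes Spn27A and Spn28Dc. The Cht2 interval (chr3L:1755225-1755635, summit 118 bp upstream of the 5′ end, annotated as intronic) had a fold enrichment of 34.1 and 31.7 in Cdk1-i, 33.9 and 20.2 in fzr, and 27.5 and 20.9 in GFP. The peak of ftz-f1 (chr3L:18801272-18801636, intergenic) reached 35.5 and 32.6 in Cdk1-i, 35.7 and 19.7 in fzr, and 23.8 and 20.7 in GFP. At both genes the second fzr library and the GFP libraries had the lower fold enrichments, while the percentile was at least 99.9 in every library. Libraries were therefore compared by percentile and not by fold enrichment. The 5 widest promoter intervals found in all lists were those of Kdm5, which encodes a histone demethylase, BG642163, CG33523, Sap-r, which encodes saposin-related lysosomal proteins, and CG14636. The Kdm5 interval (chr2L:5997059-5999746) was covered over 2638 and 2582 bp in Cdk1-i, 2654 and 2551 bp in fzr, and 2483 and 2632 bp in GFP, and its percentile lay between 84.1 and 91.2. The widest promoters were thus not the strongest.

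A larger share of promoter than of other intervals was found in all lists, by a definition that favours shared intervals. At equal strength the order turned round. Of the 4190 promoter intervals, 2217 (52.9%) were found in all 6 lists and 588 (14.0%) in only 1, against 10249 (43.8%) and 3587 (15.3%) of the 23396 others. An interval counted as a promoter when any list had a promoter peak there, so intervals in more lists had more chances to count. Counted within each library, the share of its promoter intervals found in every list was 68.5 and 67.6% in Cdk1-i, 67.7 and 75.2% in fzr, and 71.6 and 70.7% in GFP. For the other intervals these shares were 57.2 and 57.3% in Cdk1-i, 67.2 and 76.0% in fzr, and 57.6 and 59.6% in GFP. The difference of 7.71 ± 6.23 percentage points (SD, n = 6) was positive in 5 of 6 libraries and did not pass the test (exact sign-flip permutation test, p = 0.09375). It was 0.448 and -0.774 points in the fzr libraries and from 10.3 to 14.0 points in the other 4. With all lists cut to the length of the shortest, it was -0.257 and 8.51 points in the fzr libraries and from 7.06 to 10.7 points in the others, so only the first fzr library then stood apart. With promoter peaks merged alone, 1842 of 4203 intervals were found in all 6 lists. The shares within libraries were then 60.5 and 59.8% in Cdk1-i, 59.3 and 68.5% in fzr, and 64.5 and 63.4% in GFP. Other intervals have no counterpart in that setting. When intervals were compared within quartiles of the percentile, a comparison chosen after seeing the data, promoters were the less shared class. In the strongest quartile 87.4 ± 3.03% of promoter intervals and 96.8 ± 0.544% of the others were found in all lists, in the next 63.8 ± 3.47% and 82.9 ± 4.07%, and in the one below 41.1 ± 8.52% and 53.4 ± 12.2% (SD, n = 6 libraries). Each of these differences was negative in 6 of 6 libraries (exact sign-flip permutation test, p = 0.03125, adjusted p over the 4 quartiles = 0.0417). Every library counts the same set of intervals found in all 6 lists, so the differences of the libraries are not independent. The p-values on presence in all lists treat them as independent and are given as a description. In the weakest quartile the difference was -1.36 ± 3.31 points (SD, n = 6; exact permutation p = 0.34375).

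**Figure D2:**
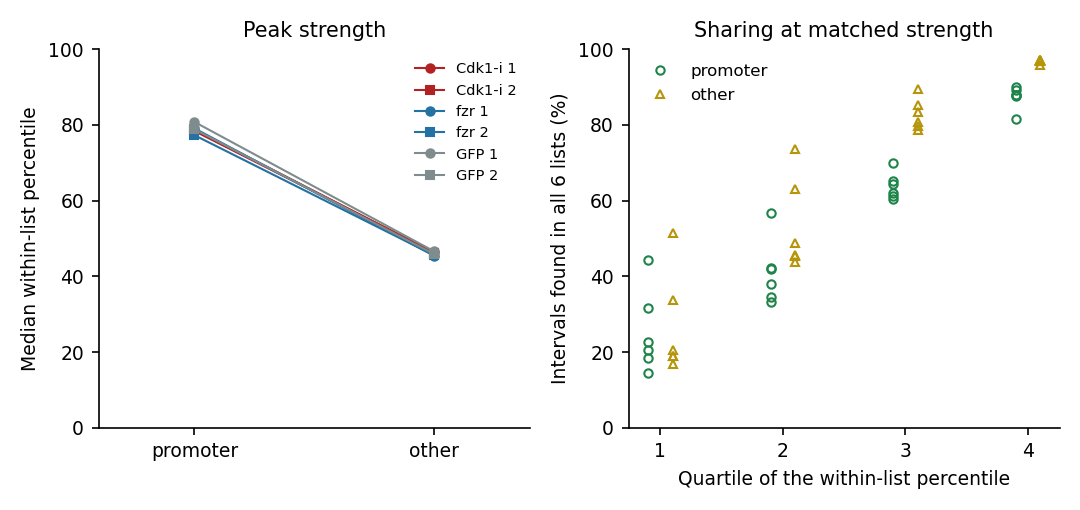
Left, median within-list percentile of promoter and other peaks, with 1 line for each library. Right, share of intervals found in all 6 lists (%) by quartile of the percentile, where each point is a library, circles are promoter intervals and triangles are other intervals. In the 3 upper quartiles the promoter mean lies below that of the other intervals, for example 87.4 against 96.8% in the strongest.

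Narrow promoters of the top quartile were shared less often than wide ones in every library. In Cdk1-i, 157 and 146 promoter intervals of the top quartile were covered over 200 bp or less, and 21.7 and 18.5% of them were found in all lists. In fzr, there were 264 and 9 such intervals, of which 11.0 and 66.7% were in all lists, and in GFP 98 and 95, of which 54.1 and 26.3% were. The top-quartile intervals covered over more than 400 bp were found in all lists in 99.7 and 99.6% of cases in Cdk1-i, 99.1 and 93.3% in fzr, and 97.8 and 97.9% in GFP. Intervals of 200 bp or less made up 123 of 214 and 119 of 219 of the top-quartile promoters that were not in all lists in Cdk1-i, 235 of 341 and 3 of 190 in fzr, and 45 of 177 and 70 of 185 in GFP, so they were the larger part in Cdk1-i and the first fzr library and not in the other 3. In the second fzr library 74 of the 190 were covered over more than 400 bp. The second fzr list holds no peak under 197 bp, so a narrow promoter of the kind counted here could enter it only at a greater length. Promoters shared by a pair of divergently oriented genes were narrower than the rest. Of 576 such intervals, 214 (37.2%) were found in all lists, against 2003 of 3614 others (55.4%), although their median percentiles in the intervals found everywhere, 87.7 and 89.0 in Cdk1-i, 87.7 and 86.8 in fzr, and 92.2 and 89.9 in GFP, were no lower than the 87.0 and 86.8, 85.8 and 82.0, and 87.7 and 86.7 of the rest. Their median widths were 328 and 361.5 bp in Cdk1-i, 326.5 and 430.5 bp in fzr, and 331.5 and 378 bp in GFP, and those of the rest ran from 429 to 513 bp.

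Presence was compared between genotypes next, to ask which promoters were listed in each of the 2 libraries of 1 genotype and in none of the other. Between Cdk1-i and GFP, 136 promoter intervals (3.25%) were gained and 49 (1.17%) were lost, against 864 (3.69%) and 571 (2.44%) of the other intervals on the same arms. Over all 45905 intervals of the genome 3.21% were gained and 3.28% lost, so the share of gained promoters was at the background while that of lost promoters was below it. Between fzr and GFP, 55 promoter intervals (1.31%) were gained and 94 (2.24%) lost, against 1.06% gained and 6.07% lost over all intervals. Between Cdk1-i and fzr, 172 (4.11%) were present only in Cdk1-i and 72 (1.72%) only in fzr, against 6.97 and 1.5% over all intervals. With 2 libraries against 2, an exact two-sided permutation test cannot give a p below 0.333 for any single interval, and presence was not tested. The fzr lists are the shortest, and all 6 lists were also cut to 27119 peaks. The promoter counts of fzr against GFP then became 74 gained and 36 lost (1.91 and 0.931%), against 1.99 and 2.87% of all intervals. Those of Cdk1-i against fzr became 77 and 89 (1.99 and 2.30%), against 3.22 and 2.63%, and those of Cdk1-i against GFP 134 and 46 (3.47 and 1.19%), against 3.36 and 3.33%. With lists of equal length the balance of gained and lost promoters turned round in both comparisons with fzr, while over all intervals fzr still had more lost than gained against GFP and Cdk1-i more gained than lost against fzr.

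**Figure D3:**
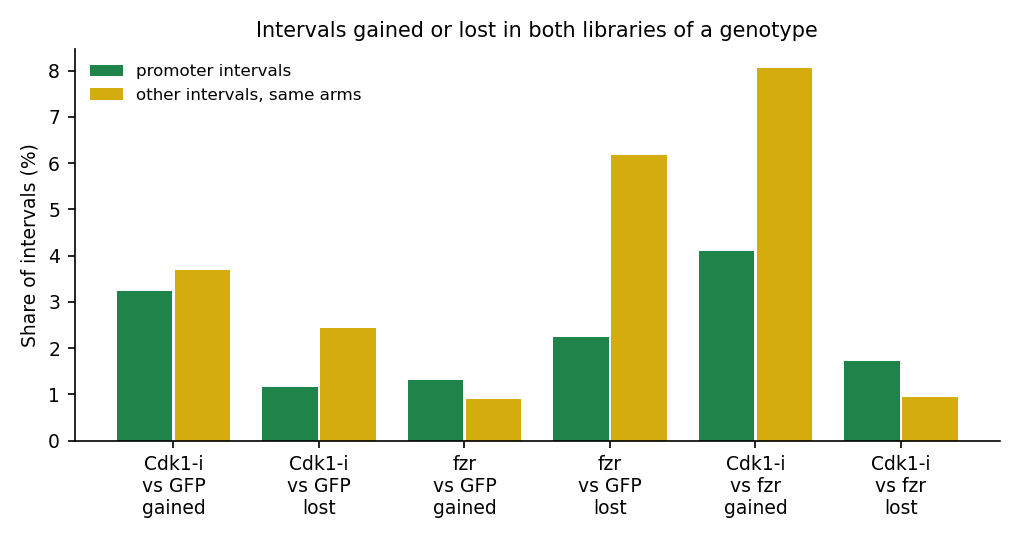
Share of intervals (%) listed in each library of the genotype named first and in none of the other (gained), or the reverse (lost), for promoter intervals and for the other intervals of the same arms. In Cdk1-i against GFP, 3.25% of promoter intervals were gained and 1.17% lost, and lost promoters are rarer than other lost intervals in both comparisons with GFP.

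The promoters gained in Cdk1-i were mostly narrow peaks. Their median width was 191.5 and 189.5 bp in the 2 Cdk1-i libraries, and in 62 of the 136 both peaks were under 197 bp. Of the 136, 16 had a peak in both fzr libraries, 73 in 1 of them and 47 in none. The 3 strongest were those of MYPT-75D, which encodes a targeting subunit of myosin phosphatase, MED19, which encodes a subunit of the Mediator complex, and CG11537. At MYPT-75D (chr3L:18641257-18641430, summit 66 bp upstream of the 5′ end) the percentile was 98.9 and 98.1 in Cdk1-i, over 169 and 173 bp, with no peak in GFP. At MED19 (chr3L:17846455-17846615, with a summit also within 500 bp of a 5′ end of CG7430) it was 98.5 and 98.3 over 161 and 160 bp, and at CG11537 (chr3L:3134149-3134351) 97.1 and 98.1 over 193 and 203 bp. All 3 also had a peak in the first fzr library, at percentiles of 97.2, 98.2 and 96.0, and none in the second. The shortest peaks that the GFP lists hold measure 169 and 166 bp. The peaks at MYPT-75D are of about this length, and those at MED19 are shorter than any peak of either GFP list. Peaks of at least 197 bp alone gave 98 gained and 65 lost promoters in Cdk1-i (2.64 and 1.75%), against 2.68 and 3.69% of all intervals, and the part of peak length in these gains was not tested further. Among the gained intervals of the gene lists was the one between Hsp67Bc, Hsp22 and CG4456, at percentiles of 82.9 and 86.4 in Cdk1-i over 169 and 218 bp, with no peak in fzr or GFP.

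The promoters lost in Cdk1-i were wider, with medians of 244 and 266 bp in the GFP libraries. The strongest was the interval between CG4970 and Dlg5, which encodes a scaffold protein (chr2L:11517062-11517352), at percentiles of 96.2 and 97.6 in GFP over 196 and 250 bp. It was followed by rho-6, of the rhomboid protease family, at 84.3 and 94.2 over 402 and 609 bp, and by CheB93b at 84.7 and 84.1 over 276 bp in both. All 3 also had a peak in both fzr libraries, at percentiles of 94.1 and 96.2, 84.0 and 84.9, and 72.3 and 76.7, so they were absent only from the libraries labelled Cdk1-i.

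The promoters gained in fzr had median widths of 162 and 351 bp in its 2 libraries, the same contrast as between the 2 lists. They were led by Rm62, which encodes a DEAD-box RNA helicase (chr3R:6008543-6008893), at percentiles of 97.1 and 88.0, and CG4360, with a summit also within 500 bp of a 5′ end of Sirt2, a deacetylase gene, at 97.4 and 82.8. Neither had a peak in Cdk1-i or GFP. In the first fzr library the peaks of Rm62 and CG4360 measured 158 and 147 bp, shorter than any peak of the Cdk1-i or GFP lists. In the second they measured 351 and 486 bp. CG5823, with P5cr-2, stood at 94.5 and 88.8 in fzr and had no peak in GFP, and it also had peaks in Cdk1-i at 87.0 and 89.7. With a minimum of 197 bp the gained promoters of fzr were 28 (0.754%), against 0.89% of all intervals, so their share was then no longer above the background. Those lost in fzr were 114 (3.07%), against 6.73%, and between Cdk1-i and fzr 155 were present only in Cdk1-i and 43 only in fzr (4.17 and 1.16%), against 7.08 and 1.28%. The promoters lost in fzr had median percentiles of 29.0 and 26.6 in GFP, and 60 of the 94 were present in both Cdk1-i libraries. The strongest were those of LysS, a lysozyme gene, at 78.9 and 86.4 in GFP and 92.9 in the second Cdk1-i library, with no peak in the first, COX8, which encodes a subunit of cytochrome c oxidase, at 80.8 and 66.0, and Arl1, which encodes a small GTPase and shares its promoter with brm, the ATPase of a chromatin remodelling complex, at 88.3 and 52.9. COX8 and Arl1 also had weaker peaks in Cdk1-i, at 1.29 and 32.9, and at 42.3 and 32.9.

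No promoter passed the test for a change in percentile between genotypes. limma was fitted to the percentiles of all 19441 intervals found in all 6 lists, of which 2217 were promoters, and Benjamini-Hochberg adjustment over all of them left 0 promoters and 0% of all intervals past 0.05 in each of the 3 comparisons. At an unadjusted p under 0.05, 98 promoters (4.42%) were higher and 93 (4.19%) lower in Cdk1-i than in GFP, against 4.44 and 4.33% of all intervals. In fzr against GFP these were 59 (2.66%) and 248 (11.2%), against 2.11 and 12.6%, and in Cdk1-i against fzr 205 (9.25%) and 53 (2.39%), against 12.5 and 1.99%. None of these shares was above that of all intervals, other than those of the promoters higher in fzr than in GFP and lower in Cdk1-i than in fzr. The median difference over the promoters was 0.17 points in Cdk1-i against GFP, -1.94 in fzr against GFP and 2.06 in Cdk1-i against fzr, and over all intervals 0.44, -4.17 and 4.70. These values set lists of different lengths side by side. With lists of equal length the median differences were 0.14, -0.29 and 0.35 points over the promoters and 0.33, -0.06 and 0.32 over all intervals, so the larger shifts of both comparisons with fzr were not seen with equal lists, over promoters or over all intervals. The counts at an unadjusted p under 0.05 were then 115 promoters higher and 100 lower in Cdk1-i than in GFP (5.69 and 4.95%), against 5.36 and 4.6% of all intervals. They were 107 higher and 118 lower in fzr than in GFP (5.29 and 5.84%), against 5.27 and 5.37% of all intervals, and 86 higher and 92 lower in Cdk1-i than in fzr (4.25 and 4.55%), against 5.19 and 4.61%. limma again called 0 promoters in each comparison. In the full lists, the groups of 2 did not overlap at 490 promoters that were higher and 477 that were lower in Cdk1-i than in GFP (22.1 and 21.5%), against 23.7 and 21% of all intervals. In fzr against GFP they did not overlap at 211 higher and 629 lower (9.52 and 28.4%), against 8.53 and 33.2%. Without the first fzr library, limma called 1 promoter higher and 130 lower in fzr than in GFP (0.0444 and 5.77%), against 0.0443 and 3.14% of all intervals, and 147 higher and 3 lower in Cdk1-i than in fzr (6.52 and 0.133%), against 3.94 and 0.325%. In Cdk1-i against GFP it called 0 promoters and 0.0689% of all intervals as lower. This fit assumes that the lone fzr library varies like the others, and the calls on fzr rest on that library, whose list is the shortest. The 1 higher promoter was CG10089. Without the second GFP library, limma called 1 promoter higher in both Cdk1-i and fzr, which was also the 1 call over all intervals (0.00505%), that of CG3625 (chr2L:285687-286336), which stood at 99.5 and 99.5 in Cdk1-i, 99.7 and 98.7 in fzr, and 40.2 and 99.6 in GFP, so the call rests on the first GFP library alone.

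The promoters with the largest differences are given as a description, since they were chosen by these values and the 2 comparisons share the GFP libraries. In Cdk1-i the promoter of CG10089 (chr3L:13469051-13469406) had percentiles of 56.8 and 61.7, against 8.56 and 7.18 in GFP, and 55.9 and 69.2 in fzr. Both GFP libraries were near the bottom of their lists and all 4 others near the middle. The difference was 51.4 ± 9.67 points in Cdk1-i (SE, limma adjusted p = 0.234) and 54.7 ± 9.67 in fzr (adjusted p = 0.270). CG9044 (chr2L:5949361-5949874) showed the reverse, with 2.48 and 39.2 in Cdk1-i and 15.8 and 28.7 in fzr, against 70.7 and 76.2 in GFP. Its difference was -52.6 ± 13.3 points in Cdk1-i (limma adjusted p = 0.383) and -51.2 ± 13.3 in fzr (adjusted p = 0.270), with the 2 Cdk1-i libraries far apart.

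In Cdk1-i the next promoters by size of the increase were CG4962 at 87.4 and 86.0, against 22.0 and 49.8 in GFP, and RpL10Aa, which encodes a ribosomal protein, at 61.4 and 47.0, against 8.56 and 12.0. CG8907 stood at 69.1 and 76.5, against 45.3 and 20.6, and CG12784 at 74.8 and 72.1, against 32.8 and 36.4 in GFP. CG4962 was the only one of them that limma called on the scale of log2 fold enrichment, with a difference of 1.17 (adjusted p = 0.0388) after each library was centred on its median over the intervals found in all lists. On that scale 0.036% of all intervals were called higher and 0.154% lower in Cdk1-i than in GFP. On the lower side were Sumo, which encodes the small modifier SUMO, at 7.66 and 36.8 in Cdk1-i, against 64 and 82.7 in GFP, and CG7509 at 18.7 and 38.6, against 75.1 and 77.6. RpL26, a ribosomal protein gene, stood at 22.6 and 43.2, against 86.1 and 72.6, and tank at 7.66 and 77.5, against 87.0 and 90.4, where the 2 Cdk1-i libraries themselves differed by most of the scale. The summits of Sumo, RpL10Aa and CG12784 lay 482, 448 and 361 bp from the 5′ end, near the edge of the window. At RpL10Aa only 3 lists had a summit within 500 bp of the 5′ end, so its percentiles are values of the merged interval.

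In fzr the increase was largest, after CG10089, at CG4770 with 73.5 and 82.3, against 55.7 and 12.0 in GFP, CG4438 with 63.9 and 76.7, against 31.9 and 29.4, CG1927 with 67.0 and 74.4, against 22.9 and 44.9, and CG9628 with 74.3 and 67.0, against 44.1 and 27.7. CG31036 had the largest decrease, with 35.4 and 17.0, against 79.6 and 79.9 in GFP, a difference of -53.6 ± 9.44 points (SE, limma adjusted p = 0.270). Gr21a, which encodes a subunit of the carbon dioxide receptor, stood at 14.7 and 17.0, against 67.3 and 61.0, and slo, which encodes a calcium-activated potassium channel, at 31.4 and 22.9, against 92.5 and 56.4. eEF1alpha2, which encodes a translation elongation factor, stood at 51.1 and 22.9, against 82.4 and 84.1 in GFP. Cdk1-i lay on the GFP side at CG31036 with 70.5 and 72.6 and at slo with 75.1 and 70.7, and no adjusted p for Cdk1-i against fzr at a named interval was below 0.268. The summits of CG31036 and CG1927 lay in introns, 495 and 498 bp downstream of the 5′ end, at the edge of the window. Those of CG4438 and Gr21a lay 444 and 395 bp upstream of it.

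**Figure D4:**
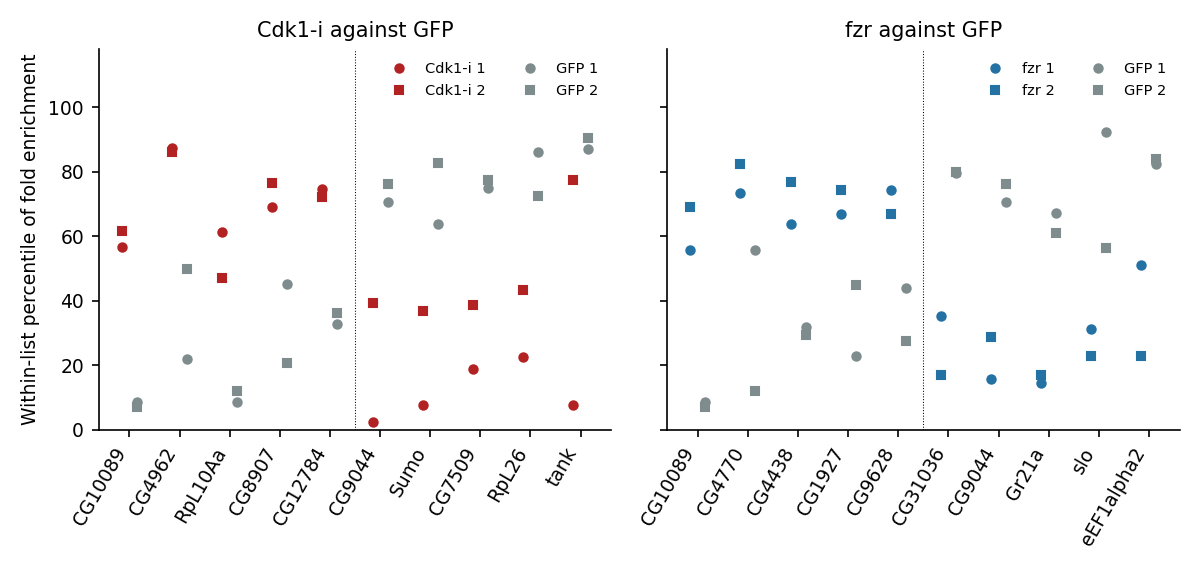
Within-list percentile of fold enrichment at the promoters with the largest differences from GFP, higher ones left of the dotted line and lower ones right of it, with Cdk1-i and GFP in the left panel and fzr and GFP in the right panel. Circles are replicate 1 and squares replicate 2, and tank shows the widest gap between replicates, 7.66 and 77.5 in Cdk1-i.

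No promoter passed the test for a change in width either. limma on the log2 of the bases covered called 0 promoters in the 3 comparisons, again with 0% of all intervals. At an unadjusted p under 0.05 there were 81 promoters (3.65%) in Cdk1-i against GFP, 112 (5.05%) in fzr against GFP and 95 (4.29%) in Cdk1-i against fzr, below the 5.16, 7.97 and 7.44% of all intervals. The 2217 promoters found everywhere were covered over a median of 428 and 440 bp in Cdk1-i, 419 and 503 bp in fzr, and 433 and 462 bp in GFP. The median log2 ratio to GFP was -0.01 in Cdk1-i and 0.03 in fzr.

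The share of promoters among the peaks of the arms was highest in fzr. It was 15.9 and 16.3% in fzr and 13.7 and 13.9% in Cdk1-i, against 13.1 and 13.8% in GFP, and the fzr libraries did not overlap the rest. The difference from GFP was 2.64 percentage points for fzr and 0.324 for Cdk1-i, where 2 libraries against 2 again allow no exact p below 0.333. With lists of equal length the difference for fzr was 1.35 points, and the libraries overlapped, at 17.92 and 16.28% in fzr and 16.14 and 16.35% in Cdk1-i, against 15.50 and 16.00% in GFP. The measure was chosen after seeing the data, and the fzr lists are the shortest of the 6.

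The 8724 protein-coding genes of these arms differed widely in whether they had a promoter peak at all. A peak was found at 34.0 and 34.6% of them in Cdk1-i, 34.8 and 33.1% in fzr, and 32.1 and 33.5% in GFP. All 6 lists had one at 1904 genes (21.8%), and no list at 4604 (52.8%). Gene lists are set against these shares. Of 28 wing disc patterning genes, 24 had a promoter peak in all lists and none was without one. The nubbin gene nub, which encodes a POU factor of the wing pouch, stood at percentiles of 99.4 and 99.5 in Cdk1-i, 99.2 and 99.1 in fzr, and 95.7 and 99.1 in GFP. The rho promoter, of the protease that activates EGF receptor ligands in wing veins, stood at 98.8 and 98.6 in Cdk1-i, 98.2 and 98.0 in fzr, and 98.5 and 98.8 in GFP, and that of the ligand gene wg at 98.7 and 98.4, 98.4 and 98.7, and 95.5 and 98.4 in the same order. Patterning genes have 1.57 annotated 5′ ends on average and all genes 1.37, and counting the canonical 5′ end alone gave 23 of 28 (82.1%), against 18.1% of all genes.

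Genes of the cell cycle were much closer to the average gene, and none of their promoters passed the test in any comparison. Of 22 replication genes 6 had a peak in all lists and 10 in none, and of 28 G2 and mitosis genes 5 and 15. Among the replication genes were Psf1 and Psf2, subunits of the GINS complex of the replicative helicase, with Psf2 at 97.7 and 98.2 in Cdk1-i, 99.0 and 96.5 in fzr, and 98.0 and 96.2 in GFP. CycB3, a mitotic cyclin gene, was the strongest of the G2 and mitosis genes at 99.8 and 99.6 in Cdk1-i, 99.8 and 98.1 in fzr, and 99.8 and 97.8 in GFP, in an interval of only 224 bp (chr3R:24870784-24871007). The kinase gene polo stood at 98.6 and 97.6 in Cdk1-i, 98.1 and 74.8 in fzr, and 98.3 and 96.6 in GFP, with the second fzr library apart. At Cdk1 itself (chr2L:10385800-10386277, summit 255 bp inside the gene) the percentile was 32.6 and 28.9 in Cdk1-i and 52.3 and 74.2 in fzr, and in GFP there was no peak in the first library and one at 75.0 in the second. RNA interference acts on the transcript, so this peak does not check the knockdown, and the 2 GFP libraries differed from each other. The gene fzr lies outside the 3 arms and was not analysed here.

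The other lists were small. Of 19 genes of DNA damage and apoptosis, 6 had a promoter peak in all lists. The pro-apoptotic gene rpr stood at 69.3 and 70.3 in Cdk1-i, 68.8 and 50.9 in fzr, and 82.0 and 76.7 in GFP, and the transcription factor gene Xrp1 at 96.3 and 96.3, 95.0 and 94.5, and 94.6 and 96.1 in the same order. The rpr promoter was lower than in both GFP libraries in all 4 others, with differences of -9.58 ± 8.04 points in Cdk1-i and -19.5 ± 8.04 points in fzr (SE, limma adjusted p = 0.791 and 0.323). It was named outside the rule of the 2 strongest genes of a list, which here were tefu and Xrp1. Of the other pro-apoptotic genes, hid did not share the order of rpr, with 96.6 and 93.3 in Cdk1-i, 92.1 and 89.1 in fzr, and 82.5 and 91.1 in GFP. These are values of the merged interval, as only 4 lists had a summit within 500 bp of a hid 5′ end. The skl promoter stood at 9.66 and 34.9 in Cdk1-i, 55.9 and 44.9 in fzr, and 45.3 and 49.0 in GFP. It was below both GFP libraries in both libraries of Cdk1-i but not of fzr. The grim promoter had a peak in 2 lists. The median difference of this list was -1.19 points in Cdk1-i and -0.56 in fzr, beside 0.44 and -4.17 over all intervals. Of 17 heat shock genes 5 had a peak in all lists, led by the small heat shock protein gene Hsp23 at 99.8 and 99.4 in Cdk1-i, 99.0 and 96.7 in fzr, and 99.4 and 99.4 in GFP. Of 52 cytosolic ribosomal protein genes, 24 had a peak in all lists and 14 in none, such as RpL7, RpL8, RpL40 and RpS2. RpL3 and RpL23A had the highest mean percentiles of the list, at 98.6 and 98.1. The median difference from GFP over the 26 ribosomal intervals found in all lists was -4.22 points in Cdk1-i and -7.07 in fzr. None of them was called, and their median percentiles in the 2 GFP libraries were 95.9 and 89.9.

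Markers of the tissue followed its label. Of 9 markers of the disc epithelium 8 had a promoter peak in all lists, and the 5 testis and gut markers had none in any. Of 4 neuron and photoreceptor markers none was in all lists, and gl and Syt1 stood at means of 22.0 and 15.8 over the lists, with absence as 0. Markers of cells attached to the disc were present too. Of 4 myoblast markers 3 were found in all lists, among them stumps at 89.1 and 89.7 in Cdk1-i, 90.2 and 94.0 in fzr, and 85.5 and 90.0 in GFP, and of 3 tracheal markers 2, with btl at 93.7 and 89.7, 86.9 and 88.6, and 78.9 and 74.3 in the same order. btl was higher in all 4 other libraries than in both of GFP, by 15.1 ± 3.29 points in Cdk1-i and 11.1 ± 3.29 points in fzr (SE, limma adjusted p = 0.316 and 0.270), and was singled out after its values were seen. The other tracheal marker found in all lists, Gasp, did not share this order, with 93.9 and 94.6 in Cdk1-i, 92.1 and 79.6 in fzr, and 94.9 and 90.6 in GFP. Fat body had 1 of 5 markers (Lsp1gamma) and haemocytes 1 of 4 (srp, while Hml had none). An open promoter does not require transcription, and the part of cell mix in the differences between genotypes was not tested.

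**Figure D5:**
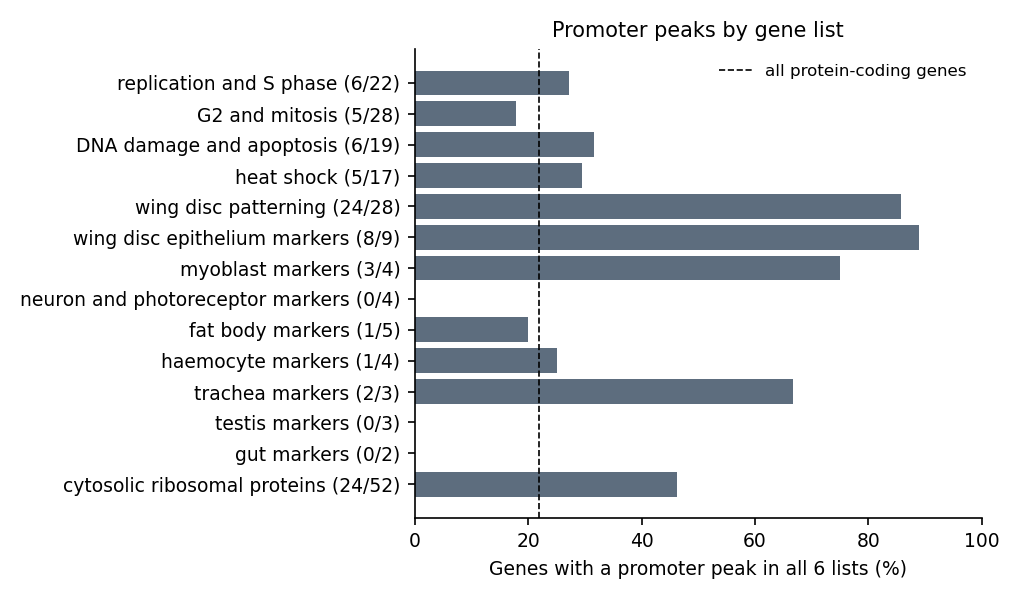
Share of the protein-coding genes of each list (%) on 2L, 3L and 3R that had a promoter peak in all 6 lists, with the number of genes in brackets. The dashed line marks the 21.8% of all 8724 genes, and wing disc patterning (24 of 28) and epithelium markers (8 of 9) stand furthest above it.

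Sequence words at the 5′ end differed between promoters with and without peaks. The 250 bases before and 50 after the canonical 5′ end of 8723 genes were searched on both strands, and a match describes letters and not a bound site. GAGAGAG occurred in 12.8% of the 1575 promoters with a peak in all lists, 6.10% of the 2262 with a peak in some, and 4.50% of the 4886 with none, against 6.41% of all. TATAAA ran the other way, with 33.5, 42.6 and 52.7%, against 46.6% of all. TTTGGCGC or TTTCGCGC, forms of the E2F site, occurred in 4.76, 4.02 and 2.58%. The DRE word TATCGATA with 9.08, 8.71 and 7.53%, the Motif 1 core GGTCACACT with 5.84, 7.16 and 5.12%, the E-box CAGCTG with 18.7, 21.7 and 16.3%, and the initiator words TCAGTT or TCAGTC with 37.7, 34.9 and 34.1% varied less. Among promoters in all lists, those with GAGAGAG had median percentiles of 93.1 and 93.3 in Cdk1-i, 92.1 and 88.8 in fzr, and 91.6 and 93.6 in GFP, against 87.2 and 87.8, 86.6 and 83.6, and 90.0 and 87.4 for those without. Their median widths were 389 and 415 bp in Cdk1-i, 386 and 495 bp in fzr, and 385 and 436 bp in GFP, against 358.5 and 372.5 bp, 341 and 442.5 bp, and 359.5 and 388.5 bp. Promoters are not replicates, base composition was not matched, and no test was made. The median difference from GFP of promoters with each word lay between -0.94 and 0.52 points in Cdk1-i and between -3.19 and -1.08 in fzr, where the promoters with the Motif 1 core had the lowest value of both.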

How the data were processed

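ATAC-seq was performed by the authors on wing discs of 3 genotypes with 2 biological replicates each. They ran the nf-core/atacseq pipeline, with alignment to dm6 by BWA-MEM, removal of blacklisted regions and peak calling by MACS2 in each library. Peak height is deposited as fold enrichment, a ratio to the local background. Each peak also has a −log10 p and −log10 q as deposited from the peak caller, and the deposited score was derived from the −log10 q. Read counts were not used here, so depth is unknown and no count model was fitted.

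Summits were compared with the 5′ ends of protein-coding transcripts in the Ensembl 115 annotation of dm6. Peaks overlapping by at least 1 bp were merged over the whole genome. Each peak received the percentile of its fold enrichment in its list, and a library with several peaks in an interval the highest of them and the sum of their widths. Percentiles and log2 widths were fitted with limma 3.58.1 (R 4.3.3) over the 19441 intervals found in all 6 lists, with a mean-variance trend, all 6 libraries in 1 fit and Benjamini-Hochberg adjustment at 0.05. Promoter and other peaks were compared by two-sided exact sign-flip permutation over libraries. Sequences were read from the RefSeq dm6 assembly. Tables were handled with pandas 2.3.3 in Python 3.11.15, and figures drawn with Matplotlib 3.10.9.

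The members, gene lists and motif words were chosen with earlier results of these data known. The named intervals were Cdk1, the 5 strongest, the 5 widest, the 5 with the largest difference in each direction from GFP whose groups did not overlap (as none passed the test), the 3 strongest gained and lost, and the 2 strongest of each list. The code was tested on simulated data: of 200 changes of 60 points planted in Cdk1-i against GFP over 19441 intervals, limma recovered 200 and called 12 others. The noise was normal, with 1 SD common to all intervals, and values were not held to the range of a percentile. In the real data the SE of Cdk1-i minus GFP differed widely, with 0.900 at Cht2 and 18.9 at tank. The simulation therefore checks the code and does not give the power of the real fits. Alternatives were a minimum −log10 q of 5, lists of equal length, an overlap of 100 bp, windows of 250 and 1000 bp, promoter peaks merged alone, peaks of at least 197 bp, ranking by −log10 p, log2 fold enrichment, absent peaks as 0, no trend, a mean percentile of at least 25, exchanged labels, a replicate block and leaving out each library.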

Additional observations from a re-analysis of the deposited data

Results flagged for a closer look

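Cdk1-i and fzr lay on opposite sides of GFP at 2 of the named promoters. At CG4438 the percentile was 21.1 and 20.1 in Cdk1-i and 63.9 and 76.7 in fzr, against 31.9 and 29.4 in GFP, and Cdk1-i minus fzr was -49.7 points (limma adjusted p = 0.268). At CG9628 it was 21.8 and 25.6 in Cdk1-i and 74.3 and 67.0 in fzr, against 44.1 and 27.7 in GFP, and Cdk1-i minus fzr was -47.0 points (limma adjusted p = 0.268). Neither difference passed the test, and both intervals had been named for their increase in fzr. Over the 2217 promoters found in all lists, 9 (0.406%) had fzr above and Cdk1-i below both GFP libraries and 69 (3.11%) the reverse, against 0.458 and 4.27% of all 19441 intervals. With 2 libraries in a genotype, no library could be set apart from its group.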

How the results depend on the processing

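The strength and width of promoter peaks against other peaks kept their direction under every alternative run. Leaving out a library gave 32.6 to 33.1 points and log2 ratios of -0.101 to -0.0873, where 5 libraries allow no exact permutation p below 0.0625, and 5.99 to 7.29 points for presence in all lists (exact p = 0.125 to 0.1875). A window of 1000 bp took presence past the threshold (8.26 points, exact permutation p = 0.03125), where the libraries again count the same set of shared intervals. Exchanged labels make Cdk1-i against GFP 55 gained and 94 lost, fzr against GFP 136 and 49, and Cdk1-i against fzr 72 and 172, and reverse CG7509 in Cdk1-i (0.376 points) and CG4438 (-10.1) and CG9628 (-12.2) in fzr. Lists of equal length left 36 promoters lost in fzr, 77 present only in Cdk1-i against fzr, and a promoter share 1.35 points above GFP in fzr. Windows of 250 and 1000 bp gave 3229 and 6011 promoter intervals, of which 22 and 95 were lost in Cdk1-i and 56 and 182 in fzr. Over all 45905 intervals 1504 were lost in Cdk1-i and 2787 in fzr with either window. Peaks of at least 197 bp left 28 gained in fzr and 43 present only in fzr against Cdk1-i. Over all intervals (44330 to 46237), leaving out a library gave 1474 to 3688 gained and 1505 to 4177 lost in Cdk1-i. It gave 487 to 2537 and 2783 to 6979 in fzr, and 3208 to 8442 and 691 to 3575 for Cdk1-i against fzr. Among the promoters (4021 to 4136 intervals), leaving out a library, which lowers what a genotype must meet, gave 136 to 313 gained and 47 to 221 lost in Cdk1-i. It gave 55 to 341 and 93 to 382 in fzr, and 170 to 638 and 71 to 392 for Cdk1-i against fzr. It gave limma calls on percentile of 0 to 1 higher and 0 lower in Cdk1-i, 0 to 1 and 0 to 130 in fzr, and 0 to 147 and 0 to 3 for Cdk1-i against fzr, and differences in promoter share from GFP of -0.0221 to 0.67 points in Cdk1-i and 2.30 to 2.99 points in fzr. Log2 fold enrichment called 1 promoter higher in Cdk1-i, among 7 higher and 30 lower of all 19441 intervals. The cause of these changes was not tested. The replicate numbers were not taken as pairs in the main fit. The deviations of same-numbered libraries correlated at 0.125 for Cdk1-i and GFP, 0.303 for fzr and GFP and 0.0267 for Cdk1-i and fzr over 19441 intervals. These values do not settle whether the numbers mark pairs. A replicate block called 0 promoters by percentile or width, with a lowest limma adjusted p of 0.0691 in Cdk1-i against GFP, and 15 intervals of any kind in that comparison. With the block, 103 promoters were higher and 363 lower in fzr than in GFP at an unadjusted p under 0.05. Over all 19441 intervals these were 545 and 3095. Without it they were 59 and 248 promoters, among 411 and 2456 of all intervals. Rankings within a list cannot show a change shared by all peaks of a library.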
